A study of Mus musculus with 12 samples.

Results

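A set of 9 complement genes was followed in the mouse sciatic nerve, chosen by name: *C1qa*, *C1qb*, *C1qc*, *C1ra*, *C1s1*, *C4b*, *C3*, *Cfb* and *Serping1*. All 9 were found among the 43432 genes of the count table, and all 9 passed the filter on low counts. RNA was measured by poly(A)-selected RNA-seq in sciatic nerves of mice aged 1 month, in 12 libraries of 1 mouse each. Of these, 4 were WT controls (*Mtmr2* wt/wt, treatment none), 4 were *Mtmr2* KO (*Mtmr2* -/-, treatment none) and 4 were niacin-treated *Mtmr2* KO (*Mtmr2* -/-). Niacin was injected intraperitoneally at 120 mg/kg from day 10 to day 21 and was then given by gavage as a slow-release form, Niacin-SR, until day 30. The mutant was made on a 129/SvPas background, each group held 3 males and 1 female, and no group of WT mice received niacin. The study's text calls the mutants without niacin vehicle-treated, whereas their labels state no treatment. If they were not dosed, niacin and the injections and gavage that delivered it cannot be told apart. *Mtmr2* encodes a phosphoinositide phosphatase expressed in many cell types, and its loss models the demyelinating neuropathy CMT4B1. The knockout is not restricted to a cell type, and whole nerve was sequenced, so fewer cells of a type and less RNA per cell cannot be told apart. Libraries are named by the numbers of the labels, 4497 to 4500 for control, 4501 to 4504 for KO and 4505 to 4508 for niacin-treated KO.

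Complement is a cascade of plasma and tissue proteins that marks debris and microbes for uptake by phagocytes. In the classical pathway C1q, a hexameric recognition protein built from the A, B and C chains, binds its target and activates the proteases C1r and C1s, which cut C4 and C2. The convertase formed in this way cuts C3, the central component, and factor B with factor D amplifies C3 cleavage in the alternative pathway. The C1 inhibitor, encoded by *Serping1*, stops C1r and C1s. In peripheral nerve complement is known for tagging myelin debris for macrophages after injury, and C1q is made mainly by macrophages, whereas C1r, C1s, C4, C3 and the C1 inhibitor are made by fibroblasts and other stromal cells as well as by the liver.

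Total counts ranged from 20763951 to 33191106 per library, and each level below is given in CPM, read counts scaled to a common library size by TMM. *Mtmr2*, the inactivated gene, was at 161, 130.2, 128 and 137 CPM in control. It was at 71.6, 84.7, 143 and 69.5 CPM in the libraries labelled KO and at 66.8, 68.5, 68.3 and 73.5 CPM in niacin-treated KO. The library labelled KO 4503 therefore lay within the control range, and it stands apart from the other 7 libraries labelled as mutant. Which exons the knockout removes is not stated in those sources that were used. Library 4502, labelled KO, stood apart in several complement genes. *Xist*, which is expressed from the inactive X chromosome of females, was above 545 CPM in 1 library of each group, 4498, 4502 and 4506, and at most 5.99 CPM in the rest. The myelin genes *Pmp22* and *Mbp* of Schwann cells were at 22580 to 34859 CPM and 21369.9 to 33559 CPM, so the labelled tissue carried its defining transcripts. The 6 skeletal muscle markers summed to 2796 and 2778 CPM in libraries 4506 and 4507 and to at most 78.3 CPM in the other 10 libraries.

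Compared per length, as CPM divided by exon length in kilobases (RPKM), *Serping1* was the most abundant member, with a mean over the 12 libraries of 303 RPKM. It was followed by *C1qa* at 105, *C1qb* at 82.3, *C3* at 66.1, *C1s1* at 56.0, *C1qc* at 47.5, *C4b* at 40.1 and *C1ra* at 19.8 RPKM. *Cfb* was at 0.107 RPKM. The nerve thus held transcripts of the initiating steps, of C4 and C3 and of their inhibitor, with very few of factor B. Together the 9 genes took 0.133% to 0.265% of all counts in a library, with the highest share in library 4502.

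**Figure D1:**
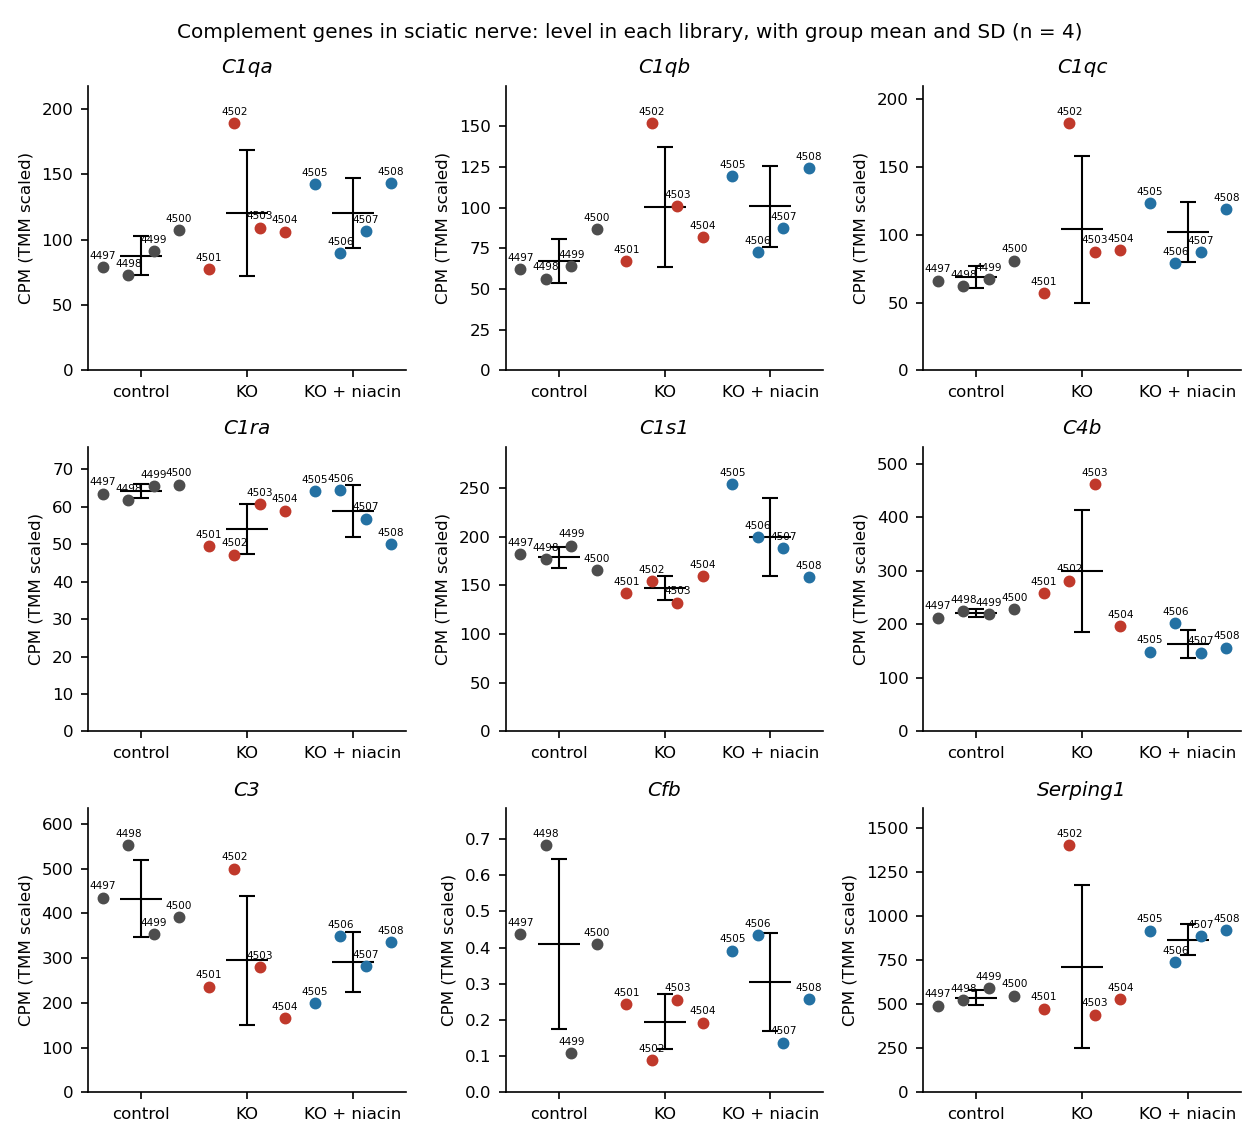
Level of each of the 9 complement genes (y axis, TMM-scaled CPM from 0, a separate scale for each gene) in each of the 12 libraries, grouped on the x axis by genotype and treatment. Points are libraries with their numbers, and bars are the group mean ± SD (n = 4). *Serping1* lay above every control library in all 4 niacin-treated libraries, whereas in KO it was high in library 4502 (1401 CPM) alone.

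Each comparison below came from 1 edgeR quasi-likelihood fit of all 12 libraries, and genes with an adjusted p under 0.05 (Benjamini-Hochberg over 17257 tested genes) were called. The 3 comparisons share libraries, so their values are set side by side and not counted as separate evidence. In *Mtmr2* KO against control 0 of 9 members were called, where 0.267% of all tested genes were. The unadjusted p was under 0.05 for 1 member. DESeq2, which was run without the filter on low counts, called 2.01% of 33862 genes and limma-voom 0.626% of 17257, and both called 0 of 9 members. Shares given for DESeq2 are thus over a larger set that includes genes with low counts. For niacin-treated KO against KO the fit called 0 of 9 members, beside 1.43% of tested genes, with an unadjusted p under 0.05 for 2. It also called 0 of 9 members, and 0% of tested genes, in niacin-treated KO against control, although the unadjusted p was under 0.05 for 2 members and for 4254 genes in all.

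The last count, of niacin-treated KO against control, differed widely between fits, and the cause was not tested. With only the control and niacin-treated libraries in the edgeR fit, 33.9% of tested genes were called and 5 of 9 members passed: *C1qb*, *C1qc* and *Serping1* were higher with niacin, and *C3* and *C4b* were lower. limma-voom with a quality weight for each library called the same 5 and *C1qa*, 6 of 9, where 42.4% of tested genes were called. DESeq2 on the 2 groups also called these 6 (5777 of 32171 genes without the filter, 18%), whereas DESeq2 on all 12 libraries called 0 (3.12% of 33862). The 33.9% of the edgeR fit was 5586 of 16501 genes, so the 2 shares are not on the same scale. So large a share of all genes was called in these fits that a call for a member is not particular to complement. The median log2 fold change of the 9 members was 0.40 in KO against control (0.03 over all tested genes). It was 0.01 in niacin-treated KO against KO (-0.04) and 0.16 in niacin-treated KO against control (0.02). In KO against control 5 members were higher and 4 lower by group mean, and the median is the value of *Serping1*. That value ranged from -0.16 to 0.57 when each library was left out in turn. A common rise of the members in KO is therefore not shown.

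**Figure D2:**
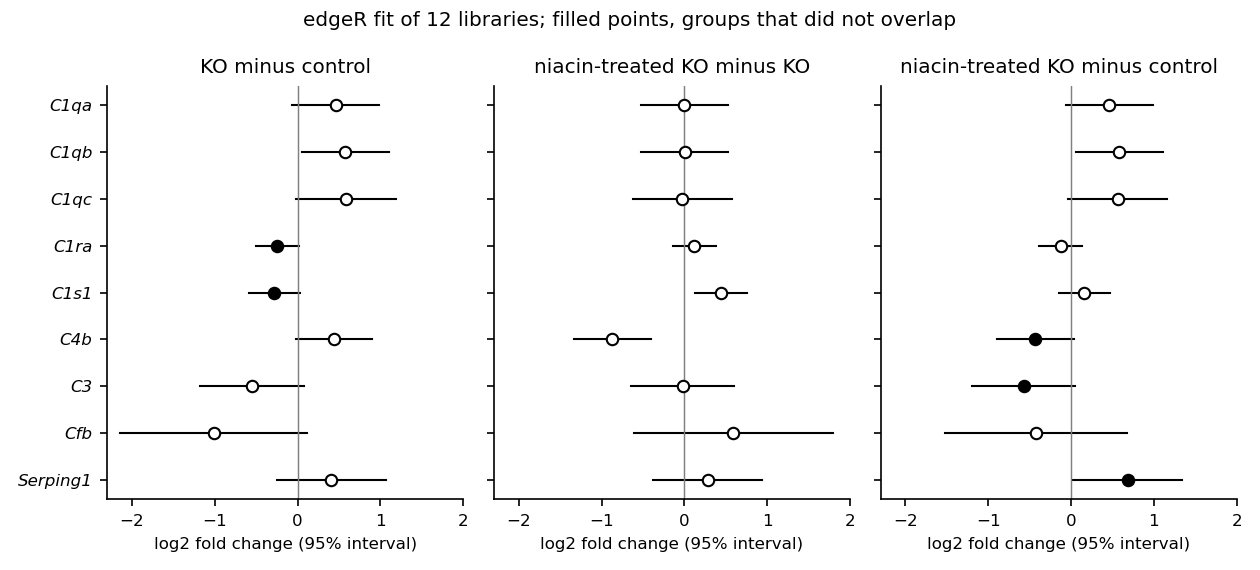
log2 fold change (x axis) of the 9 members (y axis) in the 3 comparisons, from the edgeR fit of 12 libraries, with 95% intervals. Filled points mark genes whose 2 groups of 4 libraries did not overlap: *C1ra* and *C1s1* in KO against control, and *C4b*, *C3* and *Serping1* in niacin-treated KO against control.

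The 3 C1q chains, the recognition part of the classical pathway, were on average higher in both mutant groups than in control, with a wide spread among mutants. They lie side by side on the minus strand of chromosome 4 (GRCm38), *C1qb* at 136880129 to 136886187, *C1qc* at 136889804 to 136893065 and *C1qa* at 136895917 to 136898803, each with 3 exons. *C1qa* was at 79.1, 73.0, 91.3 and 107 CPM in control, 77.2, 189, 109 and 106 CPM in KO and 142, 89.9, 106 and 143 CPM in niacin-treated KO. The groups overlapped, and library 4502 held the highest level of the 12.

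*C1qb* was at 62.2, 56.4, 63.9 and 87.0 CPM in control, 67.1, 152, 101 and 81.9 CPM in KO and 119, 72.7, 87.5 and 124 CPM with niacin. *C1qc* was at 66.2, 61.9, 67.3 and 80.9 CPM in control, 57.1, 182, 87.6 and 88.4 CPM in KO and 123, 79.0, 87.2 and 119 CPM with niacin. In both genes library 4502 was again the highest, libraries 4505 and 4508 came next, and library 4501 lay within or below the control range.

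In KO against control the log2 fold change was 0.46 for *C1qa* (SE 0.24, edgeR adjusted p = 0.351), 0.58 for *C1qb* (SE 0.25, adjusted p = 0.25) and 0.59 for *C1qc* (SE 0.28, adjusted p = 0.301). Without library 4502 these became 0.15, 0.30 and 0.17. Between niacin-treated KO and KO the log2 fold changes were 0.00, 0.01 and -0.02, with 95% intervals from -0.52 to 0.52 for *C1qa*, -0.52 to 0.53 for *C1qb* and -0.62 to 0.57 for *C1qc*, and without library 4502 they were 0.29, 0.26 and 0.38. An equal level in these groups is therefore not shown. Against control, niacin-treated KO was higher by 0.46, 0.58 and 0.56 on the log2 scale (edgeR adjusted p = 0.248, 0.176 and 0.224). In the fit of those 2 groups alone the adjusted p was 0.0512 for *C1qa*, 0.0291 for *C1qb* and 0.0146 for *C1qc*.

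The chains kept a nearly fixed proportion while their sum moved. The C1q sum ranged from 191 to 523 CPM over the 12 libraries (CV 33.5%), whereas *C1qa* made up 36.1% to 41.0% of it (CV 3.37%), *C1qb* 28.7% to 33.9% (CV 5.37%) and *C1qc* 28.3% to 34.8% (CV 5.63%). Over the 12 libraries, with each group centred on its mean, Pearson's r of log2 CPM was 0.97 for *C1qa* with *C1qc* and with *C1qb*, and 0.94 for *C1qb* with *C1qc*. Without library 4502, an extreme point of each, the values over 11 libraries were 0.96, 0.96 and 0.92. These are descriptions of points that share their libraries.

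The summed level of macrophage markers spread less across libraries than the C1q sum, although single markers differed. The 12 markers, led by *Cd74*, *Mrc1* and *Csf1r*, summed to 682 to 742 CPM in control, 600.3 to 817 CPM in KO and 630.1 to 866 CPM in niacin-treated KO, and 0 of 12 were called in any comparison by the edgeR fit. Within the list, *Adgre1* ran from 21.3 to 64.1 CPM. The log2 difference of niacin-treated KO from control ran from -0.54 (*Cd74*) to 0.59 (*Adgre1*), with a median of 0.26 over the 12 markers. It was 0.54 for *Cd68*, 0.49 for *Mrc1* and 0.21 for *Csf1r*. The C1q sum per 100 CPM of these markers was 28.0 to 39.5 in control, 33.6 to 67.7 in KO and 34.4 to 55.3 with niacin. The highest ratio, 67.7, was that of library 4502. The part of macrophage number in the C1q levels was not tested.

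**Figure D3:**
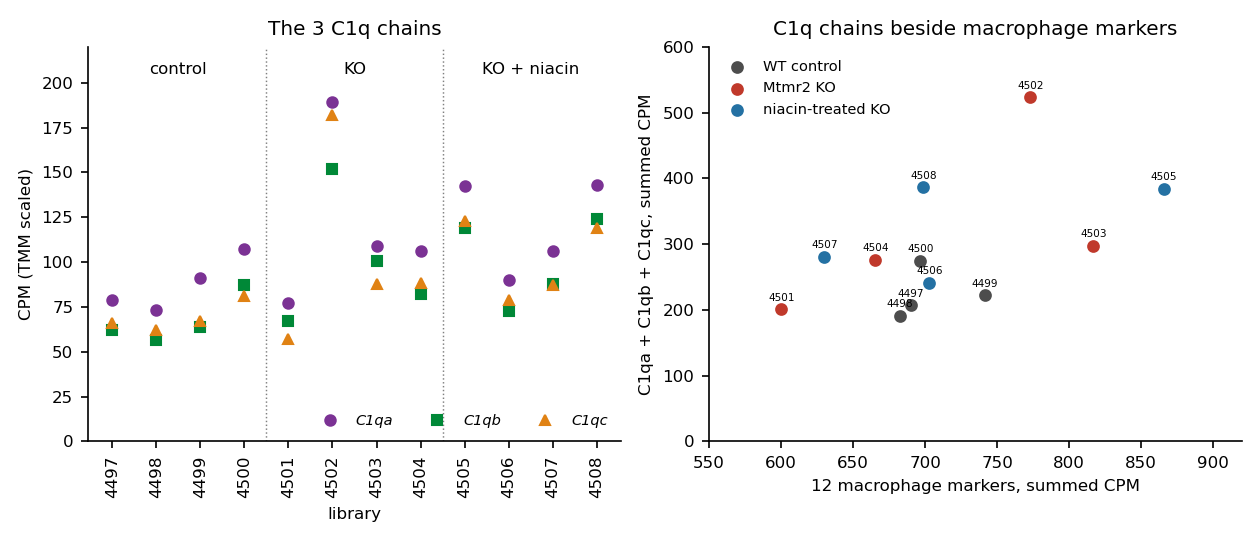
Left, CPM of the 3 C1q chains (y axis) in each library (x axis), which rise and fall together and peak in library 4502. Right, summed CPM of the chains (y axis, 191 to 523) against the summed CPM of 12 macrophage markers (x axis, which starts above 0, 600.3 to 866), 1 point per library, coloured by group.

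Promoter sequences of *C1qb* and *C1qc* are shown because these neighbouring genes moved together across the libraries. They come from RefSeq (GRCm38.p6, minus strand), run from 250 bases before to 50 bases after the start, and are *C1qb* at chr4:136886151-136886450 and *C1qc* at chr4:136892865-136893164. Capitals mark GAGGAA, the core recognised by the myeloid factor PU.1, which in *C1qc* stands on the opposite strand and so reads TTCCTC.
C1qb: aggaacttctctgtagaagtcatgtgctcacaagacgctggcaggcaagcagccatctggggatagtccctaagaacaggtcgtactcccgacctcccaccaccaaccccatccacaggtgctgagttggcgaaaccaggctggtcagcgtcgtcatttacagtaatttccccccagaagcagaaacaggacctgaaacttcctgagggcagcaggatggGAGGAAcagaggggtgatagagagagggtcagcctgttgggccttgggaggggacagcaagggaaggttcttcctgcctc
C1qc: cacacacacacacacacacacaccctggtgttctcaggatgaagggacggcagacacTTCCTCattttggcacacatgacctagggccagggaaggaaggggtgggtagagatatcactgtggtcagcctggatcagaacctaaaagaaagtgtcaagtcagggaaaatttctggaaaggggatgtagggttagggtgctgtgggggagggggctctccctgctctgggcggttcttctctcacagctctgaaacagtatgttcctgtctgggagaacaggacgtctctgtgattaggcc
In *C1qb* the match spans bases -30 to -25 from the start, and in *C1qc* bases -193 to -188. A promoter was matched for 5 of the 9 members (*C1qb*, *C1qc*, *C1ra*, *C1s1* and *C3*). On both strands, GAGGAA was found for *C1qb*, *C1qc* and *C1ra*, and in 28.3% of 32851 promoters of the same length. The interferon-gamma motif TTCNNNGAA was found for *C1ra* alone of the 5 (8.30% of promoters), and the core of the interferon-stimulated response element for 0 of 5 (3.44%). No matches of different motifs overlapped. These are matches of letters and not measured binding.

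*C1ra* and *C1s1*, the protease genes of the C1 complex, were lower in all 4 KO libraries than in any control library, by a small margin. They lie on chromosome 6 (GRCm38), *C1ra* at 124512405 to 124523443 on the plus strand and *C1s1* at 124530345 to 124542359 on the minus strand. *C1ra* was at 63.5, 61.8, 65.45 and 65.9 CPM in control and at 49.5, 47.2, 60.7 and 58.9 CPM in KO. In niacin-treated KO it was at 64.2, 64.4, 56.8 and 49.9 CPM, a range that overlapped both other groups. The control libraries were tight, with an SD of 1.897 around a mean of 64.1 CPM (n = 4).

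*C1s1* was at 182, 177, 191 and 165 CPM in control, 142, 154, 132 and 159.7 CPM in KO and 254, 199.5, 188 and 158 CPM with niacin. Of the 4 niacin-treated libraries, 3 exceeded every KO library, and library 4508 lay within the KO range. The log2 fold change in KO against control was -0.25 for *C1ra* (SE 0.12, edgeR adjusted p = 0.313) and -0.28 for *C1s1* (SE 0.14, adjusted p = 0.333). Without library 4503 the values were -0.31 and -0.24. In the two-sided exact permutation test both had p = 0.0286, which is the smallest that 4 libraries against 4 allow and is not adjusted for the number of genes. These were 2 of 9 members whose groups did not overlap, beside 9.32% of all tested genes.

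With niacin *C1s1* was higher than in KO by 0.44 on the log2 scale (SE 0.14, 1.36-fold, edgeR adjusted p = 0.122), and *C1ra* by 0.12 (SE 0.12, adjusted p = 0.600). Under 1 alternative, without library 4502, *C1s1* was called (0.45, edgeR adjusted p = 0.04998), and there 23.6% of tested genes were. Markers of fibroblasts, a source of both proteases, summed to 15570.1 to 24040 CPM in control, 10995 to 16984 CPM in KO and 13176 to 22670.0 CPM with niacin, with 0 of 11 called in any comparison by edgeR. Their part in the *C1ra* and *C1s1* levels was not tested. The near-identical copies of these genes held few counts: *C1rb* had 0.0667% of the counts of its pair with *C1ra*, and *C1s2* 0.462% of those with *C1s1*. *C1s1* shares 576 of its 3129 exon bases with the gene model Gm16567 on the opposite strand, listed at 0 counts. Reads there may have been discarded if counting ignored strand, which the sources used here do not state.

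*C4b*, the mouse C4 gene that is cut by C1s, was the member with the clearest difference between KO and niacin-treated KO. It lies on the minus strand of chromosome 17 (GRCm38) at 34728380 to 34743882. *C4b* was at 213, 224, 219 and 228 CPM in control, 258, 282, 462 and 197 CPM in KO and 149, 203, 147 and 157 CPM in niacin-treated KO. Control was tight (CV 3.13%), 3 of the 4 KO libraries exceeded every control, and all 4 niacin-treated libraries lay below every control. KO and niacin-treated KO overlapped, because library 4504 was below library 4506.

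Between niacin-treated KO and KO the log2 fold change of *C4b* was -0.87 (SE 0.22, 0.547-fold, 95% interval 0.396 to 0.755, edgeR adjusted p = 0.0634). DESeq2 on all 12 libraries, which called 3.13% of the genes it tested, gave an adjusted p of 0.00564, and limma-voom, which called 11.6%, gave 0.0344. Of all single libraries, leaving out 4503, the one labelled KO with *Mtmr2* at the control level, moved this value most. Leaving out 4506 or 4507, which both carried muscle markers, with the other kept, gave -1.002 (edgeR adjusted p = 0.0691) and -0.82 (adjusted p = 0.208). Without 4503 the log2 fold change was -0.58 (edgeR adjusted p = 0.120), and without libraries 4502 and 4503 together it was -0.48 (adjusted p = 0.0490), where 12.5% of tested genes were called. In KO against control *C4b* differed by 0.44 (SE 0.22, edgeR adjusted p = 0.312) and by 0.15 without library 4503. With niacin it differed from control by -0.43 (SE 0.22, edgeR adjusted p = 0.226), and the fit of those 2 groups gave an adjusted p of 0.0138.

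*C4a*, the neighbouring copy of *C4b*, held 276 counts over all libraries, 0.384% of the counts of the pair. Few counts were thus assigned to that copy, in any group.

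*C3*, the central component, was lower in both mutant groups than in control, with 1 exception among 8 libraries. It lies on the minus strand of chromosome 17 (GRCm38) at 57203970 to 57228136. *C3* was at 435, 553, 354 and 391 CPM in control, 237, 499.9, 281 and 166 CPM in KO and 199.8, 349.5, 282 and 335 CPM with niacin. All 4 niacin-treated libraries lay below the lowest control, as did 3 of the 4 KO libraries, and library 4502 lay within the control range. The highest library of each group was the one with *Xist*, 4498, 4502 and 4506.

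The log2 fold change of *C3* was -0.55 in KO against control (SE 0.29, edgeR adjusted p = 0.346) and -0.93 without library 4502 (adjusted p = 0.0836). With *Xist* as a covariate it was -0.67 (edgeR adjusted p = 0.196). Niacin-treated KO differed from control by -0.57 (SE 0.29, edgeR adjusted p = 0.231), and the fit of those 2 groups gave -0.56 with an adjusted p of 0.0360. Niacin-treated KO differed from KO by -0.02 (95% interval -0.64 to 0.60, edgeR adjusted p = 0.977), and 0.34 without library 4502. Niacin-treated and untreated KO were thus not distinguished for *C3*, within an interval that includes folds from 0.641 to 1.52.

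Adipocytes express *C3* and surround the nerve, so their markers are given beside it. The 11 markers, led by *Fabp4*, *Plin4* and *Cidec*, summed to 2119 to 2779 CPM in control, 564 to 2776 CPM in KO and 1299 to 2764 CPM with niacin. In KO against control edgeR called 2 of 11 lower, beside 0.267% of all tested genes called. It called 1 of 11 higher in niacin-treated KO against KO, beside 1.43%. Libraries 4504 and 4505, with the lowest *C3* of their groups, also had the lowest adipocyte sums, 564 and 1299 CPM. Library 4503 had the highest adipocyte sum of KO, 2776 CPM, with *C3* at 281 CPM, below every control. *C3* per 100 CPM of these markers was 15.1 to 19.9 in control, 10.1 to 29.4 in KO and 11.5 to 15.4 with niacin. The part of adipose tissue in the *C3* level was not tested. *C4b* per 100 CPM of *C3* was 40.6 to 61.8 in control, 56.4 to 165 in KO and 46.8 to 74.6 with niacin.

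*Cfb*, the factor B gene of the alternative pathway, was barely detected. It held 2 to 19 counts per library, which is 0.109 to 0.683 CPM in control, 0.0897 to 0.256 CPM in KO and 0.137 to 0.433 CPM in niacin-treated KO, and the 3 ranges overlapped. The log2 fold change was -1.01 in KO against control (SE 0.53, edgeR adjusted p = 0.340), 0.59 in niacin-treated KO against KO (SE 0.56, adjusted p = 0.579) and -0.42 in niacin-treated KO against control (SE 0.51, adjusted p = 0.618). A difference in *Cfb* was not detectable at this depth. Its locus on chromosome 17 (34856374 to 34862518, minus strand) shares 2246 of its 2825 exon bases (79.5%) with the gene model Gm20547, listed at 0 counts in all 12 libraries. Reads that match both may have been discarded, since the sources used here do not name the counting program, and the level of *Cfb* is uncertain for that reason.

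*Serping1*, which encodes the C1 inhibitor, was higher in all 4 niacin-treated KO libraries than in any control library. It lies on the minus strand of chromosome 2 (GRCm38) at 84765387 to 84775444. *Serping1* was at 491, 522, 589.7 and 548 CPM in control, 475, 1401, 441 and 527 CPM in KO and 916, 737, 885 and 921 CPM in niacin-treated KO. Of the 4 KO libraries, 3 lay between 441 and 527 CPM, at or below the middle of the control range, and library 4502 was higher than every other library. The niacin-treated libraries lay between these.

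Relative to control, *Serping1* in niacin-treated KO had a log2 fold change of 0.69 (SE 0.31, 1.61-fold, 95% interval 1.02 to 2.54, edgeR adjusted p = 0.192). The fit of those 2 groups gave 0.69 with an adjusted p of 0.00263, and limma-voom 0.67 with 0.00111. *Serping1*, *C3* and *C4b* were the 3 of 9 members whose niacin-treated and control libraries did not overlap, beside 31.4% of all tested genes, a share close to that of the members. From KO, niacin-treated KO differed in *Serping1* by 0.28 (SE 0.31, edgeR adjusted p = 0.637) with library 4502 and by 0.83 without it (adjusted p = 0.00458, where 23.6% of tested genes were called). Over all libraries 0 of 9 members had niacin-treated and KO groups that did not overlap, beside 7.01% of tested genes. In KO against control the difference was 0.40 (SE 0.31, edgeR adjusted p = 0.519), and it was -0.16 without library 4502.

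The inhibitor was also high relative to the protease it inhibits. *Serping1* per 100 CPM of *C1s1* was 269.5 to 331 in control and 361 to 582 in niacin-treated KO, ranges that did not overlap. In KO it was between 330.1 and 334 in 3 libraries and 909.8 in library 4502. Pearson's r of *Serping1* was 0.85 with *C1qc*, 0.81 with *C1qa* and 0.72 with *C1qb* over 12 libraries centred on their group means. These values rest in large part on library 4502, which held the highest level of all 4 genes. Without it they were 0.49, 0.60 and 0.43 over 11 libraries.

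**Figure D4:**
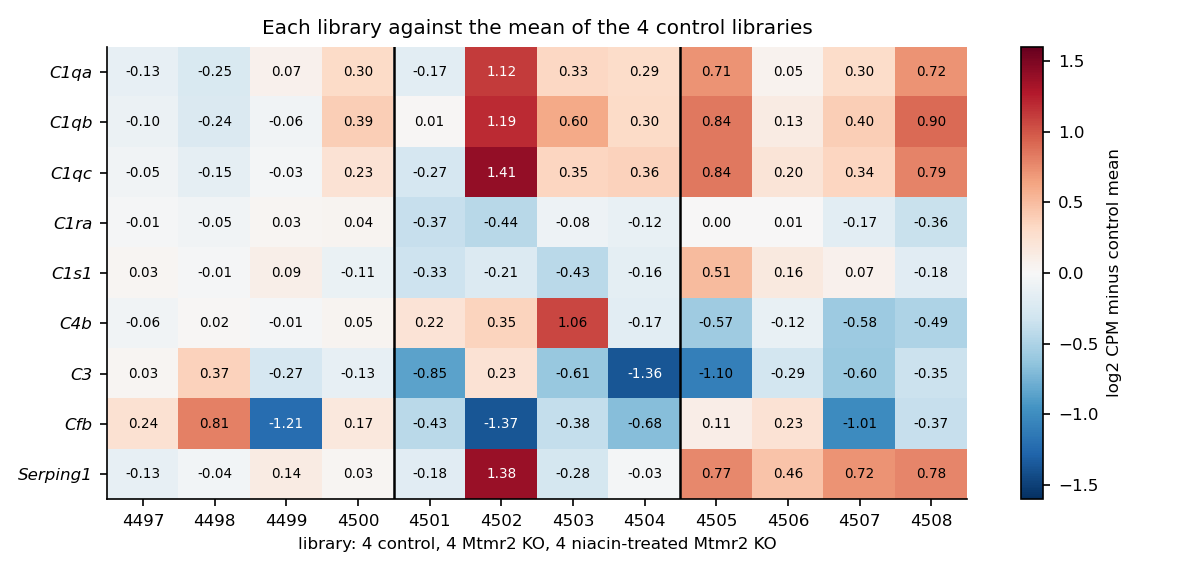
log2 CPM of each member (rows) in each library (columns) minus the mean of the 4 control libraries, from blue (lower) to red (higher), with the value in each cell. Library 4502 stands out in the 3 C1q chains and *Serping1* (1.12 to 1.41), library 4503 in *C4b* (1.06), and the 4 niacin-treated libraries are all below 0 for *C3* and *C4b* and above 0 for *Serping1*.

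For each member, the tested genes with the most similar profile were ranked by Pearson's r of log2 CPM over the 12 libraries, as a description with no test. *Dcn* (r = 0.99), a fibroblast matrix gene, followed *Serping1* most closely, ahead of *Smc1a* and *Usp15*, and without library 4502 its r was 0.98 over 11 libraries. *Dcn* is 1 of the 11 fibroblast markers, and the sum of the other 10 did not share its peak. In library 4502 *Dcn* was at 6730 CPM, its highest level, while the other 10 summed to 5518 CPM, their lowest. That sum is weighted to collagen genes such as *Col3a1* and *Col1a2* (medians of 5690 and 3375 CPM over the 12 libraries). It does not show the level of each single marker. *C3* was closest to *Fah* (0.98), *C4b* to *Paf1* (0.97), *C1ra* to *Adgrd1* (0.94), and *C1s1* to *Cdh11* (0.95), a cadherin of mesenchymal cells. Among the C1q chains, *C1qa* was closest to Gm10132 (0.96) and *C1qc* to *Ninj1* (0.97), which was second for *C1qa*, and *C1qb* was closest to *Riok1* (0.97). *Cfb* had no close match (*Dock8*, 0.82).

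Of 49 other complement genes listed by role, 35 passed the filter on low counts. In KO against control edgeR called 0 of 35 (0.267% of all tested genes), with an unadjusted p under 0.05 for 5, whereas DESeq2 on all libraries called 3 (*C6*, *C7* and *Colec11*, beside 2.01% of all genes) and limma-voom 0 (0.626%). Niacin-treated KO differed from KO in 2 of 35 genes called by edgeR, *Colec11* and *Colec12*, both higher, beside 1.43% of all tested genes, and without library 4502 in 11 of 35, beside 23.6%. For niacin-treated KO against control it called 0 of 35, with an unadjusted p under 0.05 for 8. The edgeR fit of the 2 groups called 10 there (33.9% of all tested genes), DESeq2 on all libraries 1 (*Vtn*, 3.12%) and limma-voom 11 (42.4%), so the counts of the 2-group fit and of limma-voom were close to the share of all genes. The median log2 fold change of the 35 genes was -0.11, 0.03 and 0.09 in the 3 comparisons, beside 0.03, -0.04 and 0.02 over all tested genes. The groups did not overlap in 3, 5 and 7 of the 35 genes, beside 9.32%, 7.01% and 31.4% of all tested genes. *Colec11*, *Colec12* and *Vtn*, described below, are among them.

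Among the other initiating genes, the collectins *Colec11* and *Colec12* were the only called genes of the set. Collectins recognise sugars, and *Colec11* can start the lectin pathway. *Colec11* was at 3.38, 3.235, 3.52 and 4.13 CPM in control, 2.16, 2.24, 1.22 and 2.07 CPM in KO and 3.87, 4.29, 5.35 and 4.50 CPM in niacin-treated KO. All 4 KO libraries were below both other groups. The log2 fold change was -0.90 in KO against control (SE 0.22, edgeR adjusted p = 0.0821) and 1.23 in niacin-treated KO against KO (SE 0.22, 2.35-fold, adjusted p = 0.0387).

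*Colec12*, a scavenger receptor of the same family, was at 93.7, 91.3, 107 and 94.6 CPM in control, 79.1, 91.2, 66.6 and 85.0 CPM in KO and 149.8, 109, 119.6 and 117 CPM with niacin. Its niacin-treated libraries lay above all others. The log2 fold change in niacin-treated KO against KO was 0.62 (SE 0.13, edgeR adjusted p = 0.0457). Both calls were close to the threshold: leaving out 1 library at a time, the adjusted p stayed under 0.05 in 5 of 12 fits for *Colec11* and in 2 of 12 for *Colec12*. *C2*, which pairs with C4 in the convertase, was at 9.11 ± 2.23 CPM in KO and 14.2 ± 2.33 CPM with niacin (SD, n = 4), a log2 difference of 0.64 (edgeR adjusted p = 0.0972). *Fcna*, a ficolin, was the other of the 3 most abundant initiating genes, at 5.99 to 21.1 CPM over the libraries.

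Of the alternative pathway, *Cfd*, the factor D or adipsin gene of adipocytes, was at 1372, 1337, 1183 and 1604 CPM in control, 818, 2396, 417 and 316 CPM in KO and 1118, 1428, 1821 and 2112 CPM in niacin-treated KO. The KO libraries spread most, with library 4502 the highest of the 12, and the groups overlapped. Its log2 fold change was -0.48 in KO against control (SE 0.48, edgeR adjusted p = 0.638) and 0.72 in niacin-treated KO against KO (SE 0.49, adjusted p = 0.432). Without library 4502 these values were -1.42 (edgeR adjusted p = 0.0583) and 1.63 (adjusted p = 0.00605), so the second passed the test there, beside 23.6% of all tested genes. Factor D thus exceeded factor B in this tissue, and properdin (*Cfp*) was at 11.8 to 39.4 CPM.

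Of 7 terminal pathway genes 3 passed the filter, *C6*, *C7* and *C8g* (0.866 to 2.83 CPM). *C7* was at 14.5, 6.255, 20.2 and 18.9 CPM in control, 5.12, 6.19, 4.49 and 8.27 CPM in KO and 12.2, 4.33, 8.96 and 6.78 CPM with niacin. The control library 4498 overlapped the KO group, and the log2 fold change in KO against control was -1.32 (SE 0.36, edgeR adjusted p = 0.108). *C6*, at most 1.61 CPM, differed by 1.74 (SE 0.51, adjusted p = 0.125). The genes of C5 (*Hc*), C8a, C8b and C9 did not pass the filter, with at most 22 counts in a library.

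Of the regulators, *Vtn*, encoding vitronectin, an inhibitor of the terminal complex, was at 123, 118, 146 and 113 CPM in control, 124, 139, 58.4 and 135 CPM in KO and 223, 188, 221 and 193 CPM with niacin. Its niacin-treated libraries lay above all other libraries. Niacin-treated KO did not overlap KO in 7.01% of all tested genes, nor control in 31.4%. The log2 fold change of *Vtn* was 0.85 against KO (SE 0.22, edgeR adjusted p = 0.0689) and 0.72 against control (SE 0.22, adjusted p = 0.106). Without library 4503, the lowest in *Vtn*, the values were 0.64 (edgeR adjusted p = 0.0804) and 0.72 (adjusted p = 0.0497, beside 304 of 17430 genes called). Without library 4502 they were 0.95 (edgeR adjusted p = 0.0139) and 0.70 (adjusted p = 0.0313). In that fit 4180 and 3826 of 17716 genes were called in the 2 comparisons. *Cd59a*, an anchored inhibitor of the terminal complex, was at 92.5 to 138 CPM with no call.

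Of the receptors, *Calr* (300.1 to 612 CPM), *Cd93* (18.8 to 70.5 CPM) and *C1qbp* (22.7 to 38.6 CPM) were the most abundant and were not called by edgeR. All 4 niacin-treated libraries lay below every control library in *Cd93* (log2 fold change -0.91, SE 0.31, edgeR adjusted p = 0.127) and *C1qbp* (-0.28, SE 0.14, adjusted p = 0.226). These were the 2 of 10 tested receptor genes whose niacin-treated and control groups did not overlap, beside 31.4% of all tested genes. *C3ar1*, the receptor of the C3a fragment on myeloid cells, was at 11.1 to 14.3 CPM in control, 8.56 to 27.4 CPM in KO and 13.8 to 25.0 CPM with niacin.

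**Figure D5:**
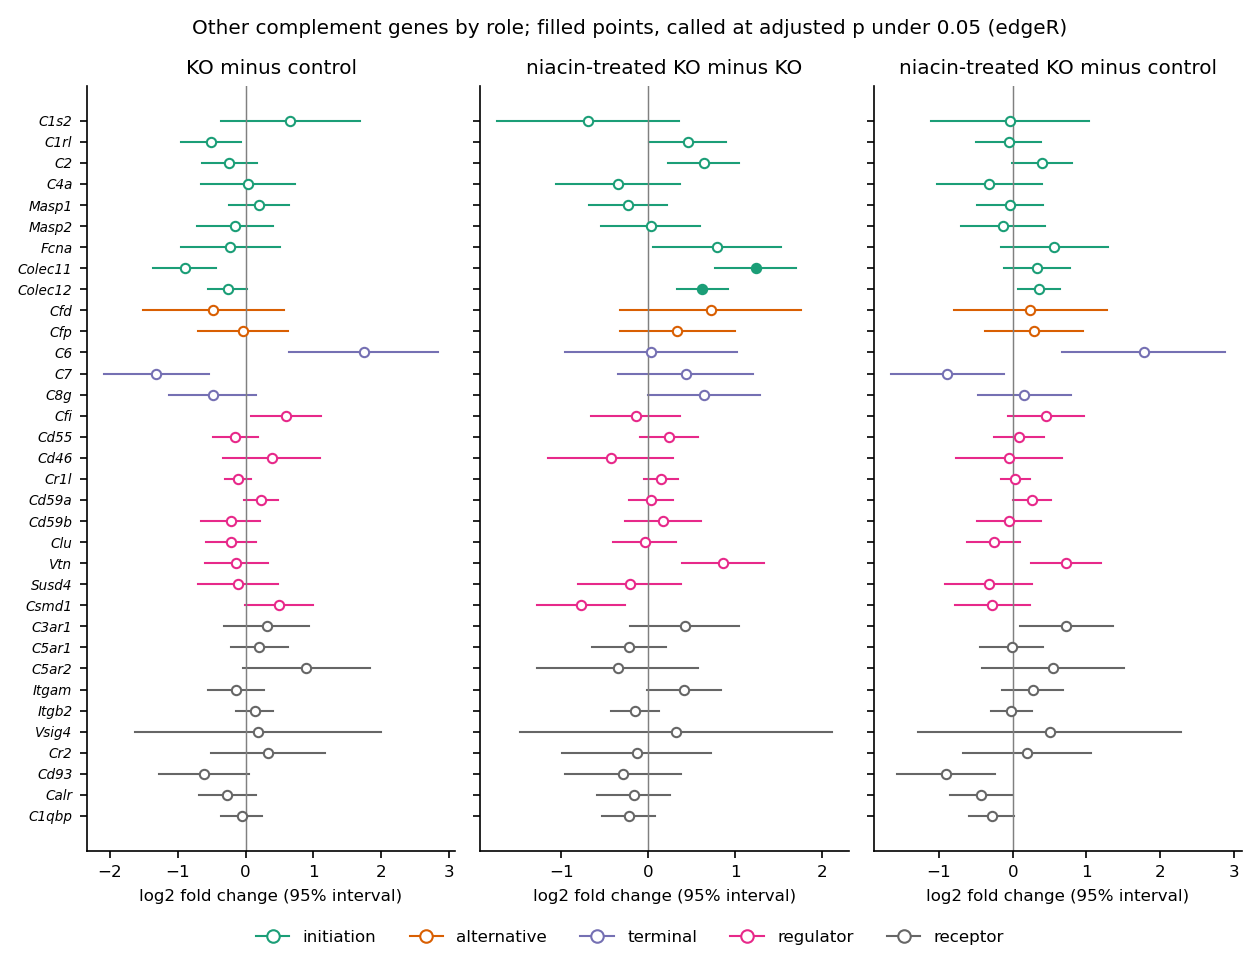
log2 fold change with 95% interval (x axis) of other complement genes that were tested (y axis), coloured by role, in the 3 comparisons of the edgeR fit. Only *Colec11* (1.23) and *Colec12* (0.62) in niacin-treated KO against KO are filled, which marks an adjusted p under 0.05.

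Markers of further cell types stand beside these values. Hepatocyte markers summed to 3.2 to 9.0 CPM, so transcripts of the liver, the main source of plasma complement, were close to absent. Neutrophil markers summed to at most 15.5 CPM. Markers of skeletal muscle, high in libraries 4506 and 4507, were called in 4 of 6 in niacin-treated KO against KO, and the part of muscle in the results was not tested. Libraries 4506 and 4507 were left out in turn, each time with the other kept. Against control, the log2 fold change of niacin-treated KO was then 0.73 and 0.67 for *Serping1*, -0.57 and -0.39 for *C4b*, and -0.70 and -0.56 for *C3*. Each had the sign it had with all libraries. No fit left out both, so these values do not show the result without the high muscle markers.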

How the data were processed

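Sciatic nerve RNA was sequenced from 12 mice, 4 in each of 3 groups taken from the sample labels. The authors mapped the reads to GRCm38/mm10 with STAR after CASAVA 1.9 and deposited whole-number read counts per Ensembl gene, without normalization. The counting program, annotation release and strand setting are not stated in the sources that were used, so a gene and its antisense partner cannot be told apart. Gene symbols came from the authors' DESeq2 tables, which hold log2 fold changes, standard errors, Wald scores and p-values. Those values were not used. Coordinates and exon lengths came from GENCODE M21.

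The edgeR package (4.0.16, in R 4.3.3) was applied to the counts as deposited, with filterByExpr over the 3 groups, TMM scaling and 1 quasi-likelihood model without covariates. Tests were two-sided with Benjamini-Hochberg adjustment, checked on simulated counts. Single members also had an exact permutation test of mean log2 CPM, with all 70 assignments of the 8 libraries compared. The CPM and RPKM values were computed here, and correlations used log2 CPM with a prior count of 2. DESeq2 1.42.0, limma 3.58.1 (voom with quality weights), other scalings and filters, *Xist* as a covariate, only the 2 groups compared, and each library left out were alternatives. Leaving out libraries 4502 and 4503 together was chosen after seeing the data. The 9 members, the 49 other complement genes and the 13 marker lists were chosen with earlier results of these data known, and *C3* is in a lipid gene list the study drew from these samples. Genes named are all members, called complement genes and the 3 most abundant genes of each role or marker list, and 3 genes most alike in profile to each member, beside *C3ar1*, *Adgre1* and *Cd68*, chosen after their values were seen. A few genes of the role and marker lists are counted but not reported here. An edgeR p-value sets a difference against the spread between mice, with 1 estimate per gene from all libraries in the fit, also those of a group not compared. Intervals of folds come from the fit.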

Additional observations from a re-analysis of the deposited data

Results flagged for a closer look

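Of the 27 groups of 4 libraries (9 members in 3 groups), 2 held a library whose gap to its nearest neighbour, divided by the range of the group, exceeded Dixon's 95% critical value for 4 samples. Chance alone flags about 1 in 20 groups. *Serping1* in *Mtmr2* KO was at 1401.2 CPM in library 4502, with a gap of 0.911 of the range to the other 3 libraries at 441 to 527 CPM. *C4b* in niacin-treated *Mtmr2* KO was at 202.832 CPM in library 4506, with a gap of 0.8293 of the range to the other 3 at 147 to 157 CPM, which only just passes the critical value. Library 4502 is also the highest of the 12 in *C1qa*, *C1qb*, *C1qc* and *Cfd*. Library 4506 carries skeletal muscle markers at 2796 CPM, and so does library 4507 at 2778 CPM, where *C4b* was at 147 CPM. The part of muscle in either value was not tested.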

How the results depend on the processing

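Under every alternative 0 of 9 members were called in *Mtmr2* KO against control. In niacin-treated KO against KO 1 member (*C4b*) was called with DESeq2 on 12 libraries (3.13% of all genes), DESeq2 on 2 groups (444 of 33174) and no filter (573 of 33882). There were 2 (*C4b* and *Serping1*) with limma-voom (11.6%) and without libraries 4502 and 4503 (12.5%). Leaving out 1 library gave 0 to 3: 3 without 4502 (23.6%), and *C4b* alone without 4504 (512 of 17850). Against control, members called in niacin-treated KO numbered 6 with DESeq2 on 2 groups (18% of all genes) and limma-voom (42.4%). They numbered 5 with edgeR on 2 groups (33.9%) and without 4502 and 4503 (5263 of 17773). Leaving out 1 library gave 0 to 2, 2 being without 4502 (*C1qc* and *Serping1*, beside 3826 of 17716 genes).

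Other complement genes called in KO against control numbered 3 with DESeq2 on 12 libraries (2.01% of all genes) and 2 with DESeq2 on 2 groups (427 of 33027). They numbered 1 with no filter (341 of 33882) and 0 to 0 leaving out 1 library. In niacin-treated KO against KO they numbered 5 with DESeq2 on 12 libraries (3.13%), 6 with limma-voom (11.6%), 0 with edgeR on 2 groups (0 of 16411) and 1 with *Xist* as covariate (50 of 17257). They numbered 7 without 4502 and 4503 (12.5%) and 0 to 11 leaving out 1 library (11 without 4502, 23.6%). In niacin-treated KO against control they numbered 1 with DESeq2 on 12 libraries (3.12%), 8 with DESeq2 on 2 groups (18%), 11 with limma-voom (42.4%) and 10 with edgeR on 2 groups (33.9%). They numbered 8 without 4502 and 4503 (5263 of 17773) and 0 to 5 leaving out 1 library.

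All genes called in KO against control numbered 46, and 680, 427, 108, 91, 0, 341, 12 and 11 with DESeq2 on 12 libraries, DESeq2 on 2 groups, limma-voom, library totals, edgeR on 2 groups, no filter, *Xist* as covariate and without 4502 and 4503 (0 to 457 leaving out 1 library). In niacin-treated KO against KO they numbered 246, and 1059, 444, 2007, 0, 573, 50 and 2223 with DESeq2 on 12 libraries, DESeq2 on 2 groups, limma-voom, edgeR on 2 groups, no filter, *Xist* as covariate and without 4502 and 4503 (0 to 4180). Against control, niacin-treated KO had 0, and 1057, 5777, 7311, 5586, 311 and 5263 with DESeq2 on 12 libraries, DESeq2 on 2 groups, limma-voom, edgeR on 2 groups, no filter and without 4502 and 4503 (0 to 3826). The cause of these differences was not tested.

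Directions turned for *Serping1* in KO against control, to -0.036 with limma-voom, -0.096 without 4502 and 4503, and -0.16 to 0.57 leaving out 1 library. Values near 0 turned in niacin-treated KO against KO. For *C3* they were 0.0075, 0.41, 0.11, 0.018, 0.073 and 0.53 with DESeq2 on 2 groups, limma-voom, library totals, no filter, *Xist* as covariate and without 4502 and 4503 (-0.21 to 0.34 leaving out 1 library). For *C1qc*, under the same settings, they were 0.0052, 0.24, 0.0997, 0.012, 0.048 and 0.48 (-0.22 to 0.38). For *C1qa* they were -0.011 with DESeq2 size factors and -0.00055 with at least 10 counts in every library (-0.16 to 0.29), and for *C1qb* -0.0047 with DESeq2 size factors (-0.14 to 0.26). Of 589 values of the 9 members under alternatives, 522 kept direction and call, 35 became called and 32 turned.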
